A study of Mus musculus with 13 samples.

Results

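The 43 nuclear receptor genes other than Esr1 were examined in the H3K27ac peak lists of 9 mouse melanoma cell lines. Members were taken by gene symbol, out of 21951 protein-coding genes in the annotation, and all 43 were found. H3K27ac, acetylation of lysine 27 of histone H3, was measured by chromatin immunoprecipitation followed by sequencing (ChIP–seq), and each line gave a single peak list. All lines carried Tyr::NRAS (Q61K), which drives mutant NRAS in melanocytes, and came from melanomas of mice that were Cdkn2a+/− and Cdh1 F/F. The Cdkn2a status of the lines themselves was not examined here. Ecad lines had no Cre, whereas ΔEcad lines also carried Tyr::CreA, which deletes Cdh1, the E-cadherin gene, in the melanocyte lineage. Ma_1007 and Ma_1181 were male Ecad, Ma_1014 and Ma_1039 female Ecad, Ma_1062 and Ma_1456 male ΔEcad, and Ma_1057, Ma_1064 and Ma_1069 female ΔEcad. The lines were untreated and were cultured in Ham's F12 medium with serum. Each line is a single culture with a single library, and the sources used here do not say whether lines of a group came from separate mice, so that p-values measure only the spread between these lines.

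Nuclear receptors are transcription factors, many of which are switched by small fat-soluble ligands such as steroids, retinoic acid, thyroid hormone, vitamin D, bile acids and oxysterols. Most bind DNA as dimers, often with a retinoid X receptor (RXR) as the partner, and recruit co-activators or co-repressors that add or remove histone acetylation. Others are orphans without a settled ligand, or are controlled mainly by how much of them is made, as are the circadian REV-ERB receptors and the immediate early NR4A family. In the melanocyte lineage, retinoid, vitamin D and glucocorticoid signalling are known for effects on growth and differentiation. H3K27ac marks active promoters and enhancers, but it is not a measure of transcript or receptor protein.

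A promoter was called where a peak came within 1 kb of any annotated transcript start of the gene. Acetylated length was the number of bases under peaks over the gene and 1 kb on either side. The lists held between 20741 peaks (Ma_1069) and 41663 peaks (Ma_1007), covering 29.5 to 67.2 Mb. Sequencing depth is not recorded in these files, so a missing peak means that none passed the threshold and not that the mark was absent. Lower signal from fewer marked cells and lower signal per cell cannot be told apart. Each of 6 melanocyte lineage markers (Sox10, Mitf, Dct, Tyr, Pmel and Mlana) was called at its promoter in every list. The keratinocyte, blood cell and endothelial markers Krt5, Krt14, Ptprc, Pecam1 and Cdh5 had no promoter call in any list. Ptprc, Pecam1 and Cdh5 nevertheless had peaks over the gene body in some lists. Of the fibroblast markers, Col1a1 was called in no list and Pdgfra in Ma_1007 only.

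To see which receptors carried a marked promoter, members were first sorted by the number of lists with a call. The promoter was called in all 9 lines for 13 members (30.2%), in some lines for 19 (44.2%) and in no line for 11 (25.6%). Over all protein-coding genes the same classes held 21.1%, 31.8% and 47.1%. Peaks over the gene body were present in all 9 lines for 20 members (46.5%), in some for 15 (34.9%) and in none for 8 (18.6%), against 23.5%, 36.5% and 40.0% of protein-coding genes.

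The classes were spread unevenly over the receptor families, whose small sizes permit description only. Among the 4 clock receptors, Nr1d1, Nr1d2 and Rorb were called in every line and Rora in some. Among the 3 immediate early NR4A receptors, Nr4a1 was always called and Nr4a2 and Nr4a3 sometimes. The 6 retinoid and RXR genes divided into 2 always called (Rarg and Rxrb), 3 sometimes called (Rara, Rarb and Rxra) and 1 never called (Rxrg). The 8 other orphan receptors divided into 3 (Nr2c1, Nr2f2 and Nr6a1), 4 (Nr2c2, Nr2e3, Nr2f1 and Nr2f6) and 1 (Nr2e1).

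The 12 lipid, sterol and xenobiotic sensors, a class in which the NR5A receptors were counted, included 3 always called, namely Nr1h2, Nr1h3 and Nr1h4. A further 4 were called in some lines (Ppara, Ppard, Pparg and Nr1i2) and 5 in none (Nr1i3, Hnf4a, Hnf4g, Nr5a1 and Nr5a2). The 3 thyroid hormone and vitamin D receptors Thra, Thrb and Vdr were all called in some lines. Of the 7 steroid and oestrogen-related receptors, Nr3c1 alone was called in every line, Esrra and Nr3c2 in some, and Esr2, Esrrb, Esrrg and Pgr in none.

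**Figure D1:**
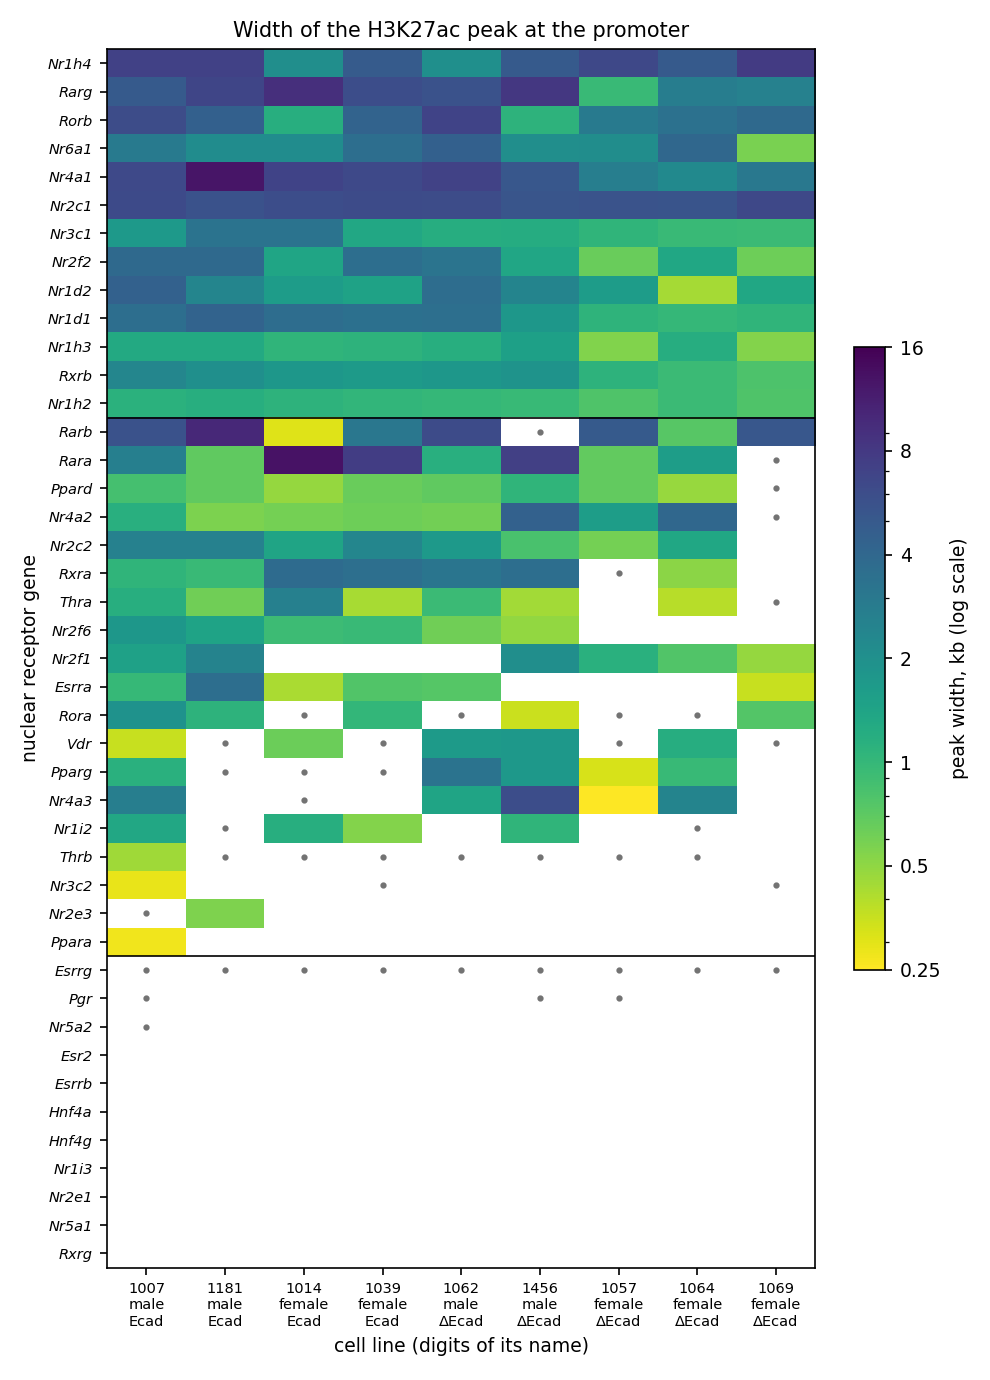
Width of the promoter peak in kb (colour, logarithmic scale) for each of the 43 members (rows, with lines separating those called in all, some and no lines) in each of the 9 lines (columns, by group), where white cells have no peak within 1 kb of an annotated start and a grey dot marks a peak elsewhere over the gene. Nr2f6 is white in the 3 female ΔEcad lines only, and 11 members are white throughout.

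Promoter sequences, each from 250 bases before to 50 after an annotated start, are shown for members called in at most 1 of the 3 female ΔEcad lines and in all 6 others (Nr2f6, Rxra and Thra) and for always-called members with wide peaks (Nr1h4 and Nr4a1). They were read from GRCm38 (mm10), 5′ to 3′ on the strand of the gene. Capitals mark matches, on either strand, to any of AGGTCA (the nuclear receptor recognition hexamer), CACGTG (E-box), TGACGTCA (cyclic AMP response element), GGGCGG (GC box) and GGAATG (TEAD motif). The minus strand of chromosome 8 carries the Nr2f6 window, chr8:71381911-71382210, which met a peak in the 6 lines outside the female ΔEcad group. It was 82.3% G or C, with 52 CpG dinucleotides and 7 GC box matches, some overlapping.
Nr2f6: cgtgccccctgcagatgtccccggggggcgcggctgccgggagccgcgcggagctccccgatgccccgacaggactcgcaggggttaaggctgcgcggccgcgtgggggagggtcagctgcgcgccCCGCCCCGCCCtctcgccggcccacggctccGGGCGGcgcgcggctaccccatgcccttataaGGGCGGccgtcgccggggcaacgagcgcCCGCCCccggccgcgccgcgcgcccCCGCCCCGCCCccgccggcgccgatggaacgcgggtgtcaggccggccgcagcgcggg

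The Rxra window at chr2:27676951-27677250 (plus strand), around the annotated starts at the 5′ end of the gene, held 55 CpG and 4 GC boxes. It met a peak in Ma_1014 alone, and the promoter call in the other 6 lines with one came from peaks outside the window.
Rxra: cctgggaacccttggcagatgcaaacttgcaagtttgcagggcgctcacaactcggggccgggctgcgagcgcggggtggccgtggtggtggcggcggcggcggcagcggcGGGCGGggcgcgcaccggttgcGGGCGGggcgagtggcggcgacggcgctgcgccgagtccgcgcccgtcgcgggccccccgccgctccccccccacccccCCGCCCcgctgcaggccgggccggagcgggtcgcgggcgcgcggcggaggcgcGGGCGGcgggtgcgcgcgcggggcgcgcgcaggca

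The Thra window at chr11:98741623-98741922 (plus strand) met a peak in the 4 Ecad lines and Ma_1062, and held 40 CpG and 5 GC boxes.
Thra: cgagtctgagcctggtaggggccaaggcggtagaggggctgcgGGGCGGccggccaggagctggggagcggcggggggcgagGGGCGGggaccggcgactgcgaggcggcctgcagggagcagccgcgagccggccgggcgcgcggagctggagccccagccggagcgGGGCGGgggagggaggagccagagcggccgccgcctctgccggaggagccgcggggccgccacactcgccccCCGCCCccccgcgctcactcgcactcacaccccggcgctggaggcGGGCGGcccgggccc

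The windows of the always-called members were less alike. The Nr1h4 window, chr10:89533536-89533835 on the minus strand, held 7 CpG and no motif, and met a peak in all 9 lines. The Nr4a1 window at chr15:101266596-101266895 (plus strand) held 35 CpG, 3 GC boxes and 1 TEAD motif and met a peak in 5 lines.
Nr1h4: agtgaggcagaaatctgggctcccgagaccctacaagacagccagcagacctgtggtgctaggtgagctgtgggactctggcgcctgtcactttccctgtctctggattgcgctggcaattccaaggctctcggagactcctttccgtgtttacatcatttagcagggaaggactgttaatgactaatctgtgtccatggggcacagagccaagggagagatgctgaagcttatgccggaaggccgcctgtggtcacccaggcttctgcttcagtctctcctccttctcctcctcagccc
Nr4a1: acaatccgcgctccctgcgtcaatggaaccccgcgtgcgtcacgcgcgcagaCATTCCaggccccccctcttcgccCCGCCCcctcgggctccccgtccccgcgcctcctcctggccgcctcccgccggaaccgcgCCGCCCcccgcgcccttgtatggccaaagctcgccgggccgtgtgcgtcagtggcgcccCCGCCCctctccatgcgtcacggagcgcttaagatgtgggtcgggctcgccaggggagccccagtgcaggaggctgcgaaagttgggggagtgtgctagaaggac

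Across 32851 RefSeq promoter windows of the same length, the GC box occurred in 35.7%, AGGTCA in 16.3%, GGAATG in 14.7%, CACGTG in 7.15% and TGACGTCA in 1.79%. A match describes letters only. Windows were available for 39 of the 43 members. Where a gene had several, the window with the most CpG was taken, whether or not it met a peak. The median number of CpG was 15.5 in always-called members, 25.5 in those called in some lines and 7 in those never called. Over all protein-coding genes with a window the medians were 24, 21 and 4, so that members and genes at large both had their lowest median where no promoter was called. Median GC content of the member windows was 63% for always-called, 68.2% for sometimes-called and 56% for never-called genes. Over all protein-coding genes with a window it was 62.7%, 61.7% and 50.7%.

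The number of members with a called promoter varied from line to line. It was 31 in Ma_1007 and 25 in Ma_1181, 24 in each of Ma_1014 and Ma_1039, 25 in Ma_1062 and 26 in Ma_1456, and 21, 24 and 17 in Ma_1057, Ma_1064 and Ma_1069. Ma_1007 thus stood highest and the female ΔEcad line Ma_1069 lowest, at 72.1% and 39.5% of the members. Over all protein-coding genes these lines were also the extremes, with 48.6% and 25.3% called. In every line the share of members called was above the share of all protein-coding genes, by a ratio of 1.33 to 1.67.

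The single lists at the extremes set many of the partial classes. Of the 5 members called in exactly 8 lines, 4 (Rara, Ppard, Nr2c2 and Nr4a2) were missing from Ma_1069, as were 63.1% of all protein-coding genes called in exactly 8. Of the 4 members called in exactly 1 line, 3 (Ppara, Nr3c2 and Thrb) were called in Ma_1007 only, as were 51.9% of all such genes.

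The acetylated length summed over the members was 259.5 kb in Ma_1007 and between 153.2 and 164.2 kb in the other Ecad and the male ΔEcad lines. Ma_1057, Ma_1064 and Ma_1069, the lines of the female ΔEcad group, had 101.8, 124.6 and 85.1 kb. Per Mb covered by each list, the female ΔEcad lines held 2.98, 3.15 and 2.88 kb over the members, and the other 6 lines 3.21 to 4.30 kb. Genes at large were lower too. Gene by gene on this scale, 22 of 35 members and 71.6% of all genes tested had a lower mean in the female ΔEcad lines. The median ratio of the group means was 0.747 over the members and 0.621 over all genes tested.

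**Figure D2:**
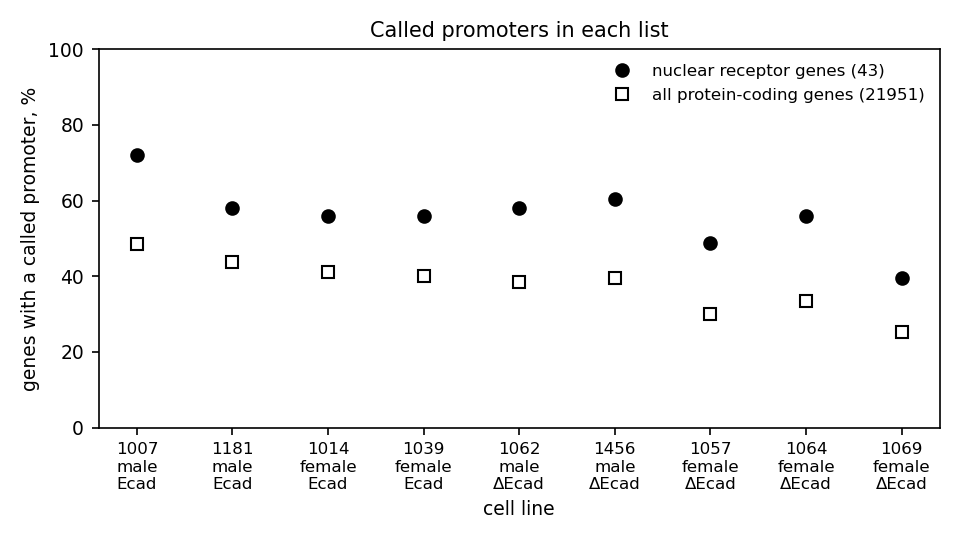
Share of the 43 members and of 21951 protein-coding genes with a called promoter, in percent, for each of the 9 lines by group. The members lie above all genes in every line, from 39.5% in Ma_1069 to 72.1% in Ma_1007.

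Which receptors were marked most broadly was then asked of the 13 members called in every line. The promoter peak of a gene was taken as the peak with the highest −log10 q within 1 kb of a start, and its strength as the percentile of that −log10 q among all peaks of the same list. Nr4a1, the immediate early receptor NUR77, had the widest median. Its promoter peak was 6.41 kb in Ma_1007, 12.6 kb in Ma_1181, 6.94 kb in Ma_1014, 6.36 kb in Ma_1039, 7.05 kb in Ma_1062, 5.20 kb in Ma_1456, 2.69 kb in Ma_1057, 2.23 kb in Ma_1064 and 3.02 kb in Ma_1069. The 3 female ΔEcad lines were the 3 narrowest and did not overlap the others. The median of 6.36 kb was at or above that of 97.0% of the 4622 protein-coding genes called in all lines.

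Nr2c1, the orphan testicular receptor TR2, came next and varied least of the 5 widest. In the same order of lines its widths were 6.29, 5.61, 5.98, 6.23, 6.11, 5.36, 5.54, 5.39 and 6.45 kb, with a median of 5.98 kb. The female ΔEcad lines held both low and high values, and the widest peak was in Ma_1069, the shortest list.

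Rarg, the retinoic acid receptor γ, which is the main retinoic acid receptor of skin, had widths of 4.90, 6.66, 9.12, 6.00, 5.62, 8.16, 0.950, 2.77 and 2.58 kb. As for Nr4a1, the 3 female ΔEcad lines were lowest, with percentiles of 53.1, 80.4 and 64.7 against 90.8 to 97.0 in the other 6.

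Nr1h4 encodes the bile acid receptor FXR, best known from liver and gut. Its promoter peak was 7.16, 7.14, 2.06, 4.82, 2.03, 4.89, 6.49, 4.96 and 7.73 kb wide in the 9 lines, at percentiles of 83.0 to 98.7. The groups overlapped, and Ma_1069 was widest. In Ma_1014 and Ma_1062 the peak with the highest −log10 q was at the intragenic start, 26.9 kb from the 5′ end, rather than at the 5′ end.

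Rorb, an orphan relative of the clock receptor Rora, differed most in strength among these 5. The widths were 6.07, 4.45, 1.17, 4.25, 6.92, 1.08, 2.93, 3.37 and 3.87 kb, and the percentile ranged from 3.56 in Ma_1456 to 96.2 in Ma_1062.

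The other 8 always-called members had median widths of 1.01 kb (Nr1h2) to 3.46 kb (Nr1d1). They comprised Nr1d1 and Nr1d2 (the circadian repressors REV-ERBα and REV-ERBβ), Nr1h2 and Nr1h3 (the oxysterol receptors LXRβ and LXRα), Rxrb (the RXRβ partner), Nr2f2 (COUP-TFII), Nr3c1 (the glucocorticoid receptor) and Nr6a1 (germ cell nuclear factor). Nr1d2 was narrow but strong, with a median width of 1.61 kb and percentiles of 66.8 to 98.8. Nr1h2 ran from 0.784 to 1.17 kb. Nr6a1 reached 4.47 kb in Ma_1062, at a start cluster 143 kb from the 5′ end, and 0.579 kb in Ma_1069, where the peak lay near the 5′ end.

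In 7 of the 13 always-called members (Nr1h2, Nr2f2, Nr1d1, Nr4a1, Rarg, Rxrb and Nr3c1) the promoter peak was narrower in every female ΔEcad line than in any other line, and in 0 members was it wider. The same held for 32.2% of the 4622 always-called protein-coding genes. For Nr2f2 the margin was small, 1.34 kb in Ma_1064 against 1.37 kb in Ma_1456. For Nr1d1 it was 1.08 kb in Ma_1057 against 1.77 kb in Ma_1456. A width is that of 1 peak, so a promoter divided into several peaks counts as narrow. Nr1d1 had 2 promoter peaks in each female ΔEcad line and 1 in every other line. Nr2f2 had 3 in each female ΔEcad line and 1 or 2 elsewhere. The acetylated length of Nr2f2 was 3.24, 3.03 and 3.27 kb in Ma_1057, Ma_1064 and Ma_1069. These lay above Ma_1456 (2.65 kb) and Ma_1014 (2.80 kb) and below the rest (4.38 to 5.63 kb).

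**Figure D3:**
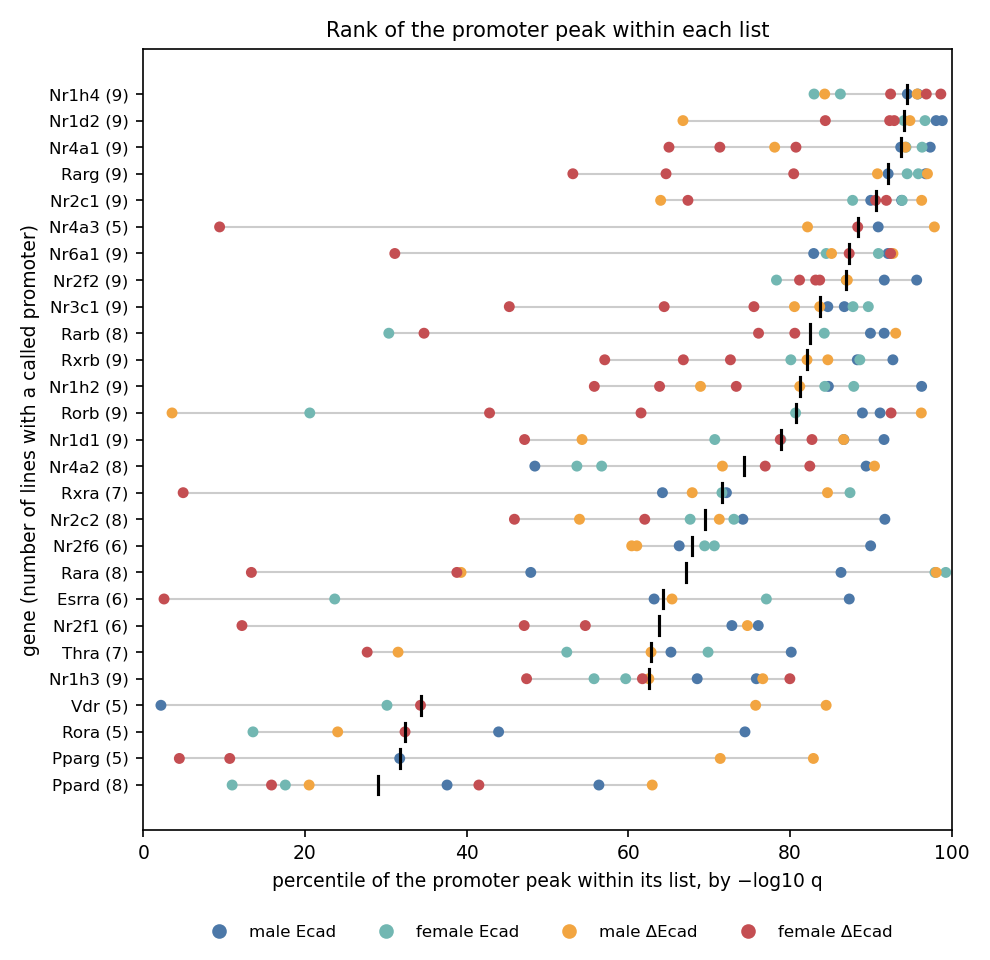
Percentile of the −log10 q of each promoter peak among all peaks of its own list, for the members called in at least 5 lines; each point is a line, coloured by group, and the black mark is the median. Nr1h4, Nr1d2 and Nr4a1 have the highest medians (94.5, 94.1 and 93.7), and the lowest single points belong to Vdr, Esrra and Rorb (2.18, 2.56 and 3.56).

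Several genes have more than 1 promoter, and the count of always-called members rested on the choice of start. With the 5′ end of the gene as the only start, 8 of 43 members rather than 13 were called in all 9 lines. Of 21951 protein-coding genes, 4045 were called in all 9 lines on that setting, against 4622 with any start. At the 5′ end the share of always-called members was thus close to that of genes at large. With the starts of protein-coding transcripts only, a setting chosen after seeing the data, the count was 11 members and 4426 protein-coding genes. Nr1h3 then had no call in any line, since its peak lay at the start of a non-coding transcript that faces Acp2. Nr6a1 then dropped to 8 lines.

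Rarg was called in all 9 lines at an internal start 7.17 kb from its 5′ end, but at the 5′ end in 7, without Ma_1057 and Ma_1069. Nr2f2, Nr3c1 and Nr4a1 were likewise called in all lines at starts 6.14, 28.1 and 12.6 kb downstream of the 5′ end. Their outermost starts were called in 0, 0 and 3 lines. Rxrb shares its promoter with Slc39a7 on the opposite strand, so that its peak cannot be assigned to either gene. In all, 11 members had another protein-coding gene within reach of their window and 5 shared peaks with one. For Nr1h3, Rxrb and Esrra all of the acetylated length lay within reach of a neighbour in at least 1 line.

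The 19 members called in some lines are described by class, beginning with the retinoid receptors. Rara, the retinoic acid receptor α, was called in all lines but Ma_1069. Its peak was 2.64 kb in Ma_1007, 0.694 kb in Ma_1181, 13.1 kb in Ma_1014, 7.52 kb in Ma_1039, 1.17 kb in Ma_1062, 7.31 kb in Ma_1456, 0.682 kb in Ma_1057 and 1.57 kb in Ma_1064. The percentiles in that order were 86.3, 47.9, 99.3, 97.9, 39.3, 98.1, 13.4 and 38.8. Both female Ecad lines were thus high, while Ecad and ΔEcad lines overlapped. The values come from peaks at different starts, however. In Ma_1181 and Ma_1064 the peak lay at a start cluster 9.88 kb from the 5′ end, and in the other lines at a start 32.6 kb from it.

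Rarb, the retinoic acid receptor β and itself a classical retinoic acid target, was called in all lines but Ma_1456. It was 5.64, 9.87, 0.304, 3.09 and 6.18 kb wide in Ma_1007, Ma_1181, Ma_1014, Ma_1039 and Ma_1062 and 4.93, 0.738 and 5.18 kb in Ma_1057, Ma_1064 and Ma_1069. Percentiles were 89.9, 91.6, 30.4, 84.2, 93.1, 80.6, 34.7 and 76.1. The call lay at a downstream start cluster 243 kb from the 5′ end, and the 5′ end itself was called in Ma_1007 only.

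Rxra, the RXRα partner of many receptors, was called in all lines but Ma_1057 and Ma_1069. Its widths were 1.06, 0.949, 3.71, 3.48, 3.20 and 3.58 kb in the 6 lines outside the female ΔEcad group and 0.513 kb in Ma_1064. The percentile was 72.1, 64.2, 87.4, 71.6, 67.9 and 84.6 in the former and 4.93 in the latter. The 1 call in the female ΔEcad group was thus the narrowest of the Rxra calls and had the lowest percentile among them. In Ma_1181 the values belong to a peak at a non-coding start 63.8 kb from the 5′ end, and in the other lines to a peak near the 5′ end.

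For the thyroid hormone receptors, Thra was called in the same 7 lines as Rxra. Widths were 1.18, 0.615, 2.61, 0.431, 0.938 and 0.445 kb outside the female ΔEcad group and 0.391 kb in Ma_1064, at percentiles of 80.1, 65.3, 69.9, 52.4, 62.8, 31.5 and 27.7. The starts at the 5′ end of Thra were called in the 4 Ecad lines and Ma_1062 only. An internal start, 12.9 kb downstream, was called in all 7 lines and was the only start called in Ma_1456 and Ma_1064. The values listed for Ma_1062, Ma_1456 and Ma_1064 belong to the peak at this internal start. Thrb was called in Ma_1007 only (0.453 kb, percentile 12.9).

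Vdr, the vitamin D receptor, was called in Ma_1007, Ma_1014, Ma_1062, Ma_1456 and Ma_1064. The widths were 0.353, 0.634, 1.67, 1.74 and 1.19 kb and the percentiles 2.18, 30.1, 75.7, 84.5 and 34.3. Both male ΔEcad lines were the widest and strongest. In the 4 lines without a call the nearest peak lay 16.3 to 17.7 kb from any start.

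Among the lipid sensors, Ppard, the broadly used fatty acid receptor PPARδ, was called in all lines but Ma_1069. Its peaks were narrow throughout, at 0.854, 0.695, 0.479, 0.649, 0.688, 1.06, 0.678 and 0.477 kb, with percentiles of 56.4, 37.6, 11, 17.6, 20.5, 62.9, 15.9 and 41.5. Pparg, the adipogenic PPARγ, was called in Ma_1007, Ma_1062, Ma_1456, Ma_1057 and Ma_1064. Its widths there were 1.15, 3.27, 1.73, 0.323 and 0.976 kb, at percentiles of 31.7, 82.9, 71.4, 4.46 and 10.7.

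The call of Pparg moved between starts. It lay near the 5′ end in Ma_1062 and Ma_1057 and at a non-coding start 79.0 kb downstream in Ma_1007, Ma_1456 and Ma_1064. Nr1i2, the xenobiotic receptor PXR of liver and gut, was called in Ma_1007, Ma_1014, Ma_1039 and Ma_1456. The widths were 1.32, 1.18, 0.545 and 1.05 kb and the percentiles 40.5, 45.0, 18.2 and 38.8. Ppara, the fasting receptor PPARα, was called in Ma_1007 only (0.275 kb, percentile 6.18).

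The clock receptor Rora was called in Ma_1007, Ma_1181, Ma_1039, Ma_1456 and Ma_1069. It was 1.91, 1.09, 1.02, 0.349 and 0.758 kb wide, at percentiles of 74.4, 43.9, 13.6, 24.0 and 32.4. Its outermost start was called in Ma_1007, Ma_1456 and Ma_1069, and a start 636 kb downstream in Ma_1007, Ma_1181 and Ma_1039.

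The remaining NR4A receptors differed in where a call was missed. Nr4a2 (NURR1) was called in all lines but Ma_1069, with widths of 1.15, 0.570, 0.594, 0.625, 0.602, 4.42, 1.57 and 4.01 kb and percentiles of 89.4, 48.4, 53.6, 56.7, 71.6, 90.4, 76.9 and 82.4. In Ma_1456 and Ma_1057 the Nr4a2 values belong to a peak at a start cluster 8.965 kb from the 5′ end, and in the other lines to a peak at the 5′ end. Nr4a3 (NOR1) was called in Ma_1007, Ma_1062, Ma_1456, Ma_1057 and Ma_1064, at 2.72, 1.41, 5.97, 0.251 and 2.44 kb and percentiles of 90.9, 82.2, 97.9, 9.44 and 88.4. In the other 4 lines the nearest peak lay 1.11 to 1.22 kb from a start, just beyond the limit of 1 kb.

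Of the orphan receptors, Nr2f6 (EAR2, a COUP-TF relative) was called in the 6 lines outside the female ΔEcad group. The peak was 1.77 kb in Ma_1007, 1.44 kb in Ma_1181, 0.928 kb in Ma_1014, 0.951 kb in Ma_1039, 0.619 kb in Ma_1062 and 0.490 kb in Ma_1456. The percentiles were 90.0, 66.3, 69.4, 70.6, 60.4 and 61. In Ma_1057, Ma_1064 and Ma_1069 the nearest peak was 7.50, 7.03 and 8.28 kb away from any start.

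Nr2f1 (COUP-TFI) had another distribution and was missing from both female Ecad lines and Ma_1062. Widths were 1.49, 2.50, 2.04, 1.14, 0.767 and 0.479 kb in Ma_1007, Ma_1181, Ma_1456, Ma_1057, Ma_1064 and Ma_1069, at percentiles of 72.8, 76.1, 74.7, 54.7, 47.1 and 12.2. Nr2c2 (TR4, the paralogue of Nr2c1) was called in all lines but Ma_1069. It was 2.57, 2.57, 1.41, 2.36, 1.71, 0.820, 0.598 and 1.35 kb wide, at percentiles of 91.7, 74.2, 67.6, 73.1, 54.0, 71.2, 45.9 and 62.0. Nr2e3, a photoreceptor gene, was called in Ma_1181 only (0.558 kb, percentile 15.3).

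Of the steroid and oestrogen-related receptors, Esrra (ERRα, a regulator of mitochondrial genes) was called in the 4 Ecad lines, Ma_1062 and Ma_1069. The widths were 0.994, 3.54, 0.421, 0.767, 0.752 and 0.356 kb and the percentiles 63.2, 87.3, 23.7, 77.1, 65.4 and 2.56. Nr3c2, the mineralocorticoid receptor, was called in Ma_1007 only (0.288 kb, percentile 10.9).

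The 11 members without a promoter call were mostly empty over the gene as well. Nr1i3, Hnf4a, Hnf4g, Rxrg, Nr2e1, Esr2, Esrrb and Nr5a1 had 0 peaks over the gene body in all 9 lines. Their distances differed greatly. The nearest peak to an Hnf4a start was 2.43 kb away in Ma_1014, while for Hnf4g, a gene of the same hepatic and intestinal pair, the closest in any line was 645 kb away. For Esr2, the oestrogen receptor β, it was 77.4 to 193 kb away.

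Esrrg, the oestrogen-related receptor γ, was the exception. It had peaks over the gene body in every line, numbering 14, 9, 7, 8, 12, 5, 4, 6 and 3, without a peak within 1 kb of a start. These 68 peaks merged into 16 regions over a gene of 606 kb, of which 2 were called in all 9 lines. Those lay at chr1:187823339-187828665 and chr1:187906330-187913847, in introns of Esrrg, 169 and 84 kb from the nearest start. Pgr, the progesterone receptor, had gene-body peaks in Ma_1007, Ma_1456 and Ma_1057 only (1, 1 and 2 peaks). Nr5a2 had 2 in Ma_1007 and 0 in the other lines.

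The study was designed around sex and Cdh1 genotype, so the female ΔEcad lines were compared with the other 6 lines, and ΔEcad with Ecad lines and female with male lines. Receptor genes had shorter acetylated regions in the female ΔEcad lines, but so had a large part of the genome. Of 35 members with any acetylated length, 12 differed at an unadjusted p under 0.05 between the female ΔEcad lines and the other 6 (two-sided exact permutation test), and all 12 were shorter. They were Rara, Rarg, Rxra, Rxrb, Thra, Nr1d1, Nr1h2, Nr2c2, Nr2f6, Nr3c1, Nr4a1 and Esrra. The share, 34.3%, compares with 25.9% of 13574 protein-coding genes, or 24.4% counting shorter genes only. The median ratio of the group means was 0.562 over the members and 0.465 over all genes tested. No gene passed an adjusted p of 0.05 and the lowest adjusted p of the exact permutation test was 0.0915, so that none of these differences survives correction. Without Ma_1069 the count was 4 and without Ma_1057 it was 6, in a design of 2 against 6 lines whose smallest possible exact p is 0.0357.

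Among the retinoid receptors, the acetylated length of Rarg was 3.63 ± 1.49 kb (SD, n = 3) in the female ΔEcad lines and 8.86 ± 1.79 kb (n = 6) in the others. The groups did not overlap, at 2.10 to 5.08 kb against 5.83 to 10.9 kb (exact permutation p = 0.0119, the smallest possible, adjusted p = 0.0915). Rxra had 0.439, 2.26 and 0 kb in Ma_1057, Ma_1064 and Ma_1069, a mean of 0.901 ± 1.20 kb, against 6.14 ± 2.54 kb in the other lines (exact permutation p = 0.0238, adjusted p = 0.130). Its partner-forming relative Rxrb had 1.06 ± 0.241 kb against 2.38 ± 0.534 kb (exact permutation p = 0.0119, adjusted p = 0.0915). Rara had 3.59 ± 2.99 kb against 11.8 ± 5.25 kb, with overlapping groups (exact permutation p = 0.0476, adjusted p = 0.184). This call held in 1 of 5 other settings and in 1 of 9 fits with a line left out.

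The glucocorticoid receptor gene Nr3c1 had 5.32, 2.91 and 2.92 kb in the female ΔEcad lines, all below the 5.33 to 7.29 kb of the others. Its means were 3.72 ± 1.39 and 6.44 ± 0.706 kb (exact permutation p = 0.0119, adjusted p = 0.0915). Ma_1057, however, nearly equalled the lowest line of the other group. Nr4a1 had 4.76 ± 0.395 kb against 8.47 ± 2.29 kb without overlap (exact permutation p = 0.0357, adjusted p = 0.160).

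Thra had 0, 0.391 and 0.415 kb in the female ΔEcad lines and 4.09 ± 2.45 kb in the others, the lowest of which, Ma_1456, had 0.445 kb (exact permutation p = 0.0476, adjusted p = 0.184). As for Rara, the call held in 1 of 5 other settings and with 1 of 9 lines left out. Nr1d1, whose gene overlaps the end of Thra on the opposite strand, had 1.80 ± 0.431 kb against 2.90 ± 0.335 kb (exact permutation p = 0.0119, adjusted p = 0.0915). No peak lay in the stretch that these 2 genes share. Nr2c2 had 1.01 ± 1.03 kb against 2.96 ± 0.868 kb and Nr1h2 had 0.837 ± 0.0895 kb against 1.10 ± 0.120 kb, in both cases without overlap (exact permutation p = 0.0119 and 0.0238). For Esrra, at 0.623 ± 0.194 kb against 1.78 ± 0.718 kb (exact permutation p = 0.0476), the length included peaks within reach of Prdx5 and Trmt112.

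Nr2f6 was the sharpest case, with 0 kb in all 3 female ΔEcad lines and 1.38 ± 0.233 kb in the other 6 (exact permutation p = 0.0119, adjusted p = 0.0915). It was also the only 1 of the 32 members with a promoter call in some line whose call differed (Fisher's exact p = 0.0119, adjusted p = 0.257), as compared with 8.44% of 11607 protein-coding genes. Without Ma_1064, whose list had the Rxra and Thra calls of this group, the count was 3. Without overlap between the groups were 10 of the 35 members in acetylated length, against 21.3% of all genes.

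**Figure D4:**
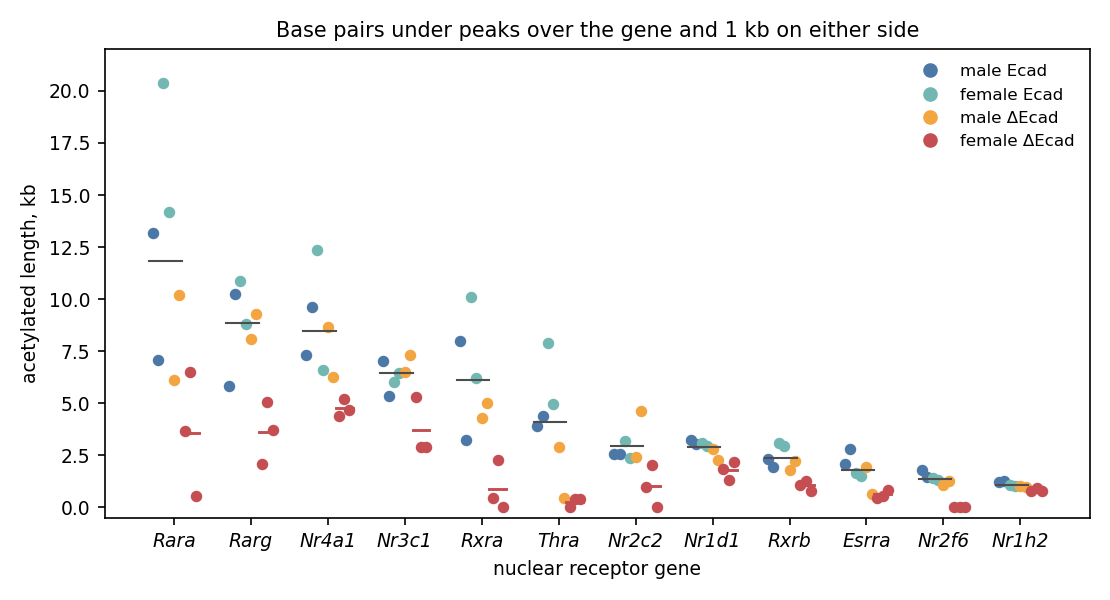
Acetylated length in kb (bases under peaks over the gene and 1 kb on either side) of the 12 members that differed between the female ΔEcad lines and the other 6 at an unadjusted p under 0.05; points are lines, coloured by group, and horizontal bars are the means of the 3 and of the 6 lines. Every female ΔEcad point lies below the mean of the other 6, and Nr2f6 is at 0 kb in all 3.

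Because the female ΔEcad lists covered less of the genome, each length was also expressed as a share of its list, in bp per Mb covered. On this scale 5 of 35 members differed, against 17.7% of all genes. Rxra, Rxrb, Nr2c2 and Nr2f6 were lower. Nr1h4 was higher, with 378 ± 74.0 bp per Mb in the female ΔEcad lines and 247 ± 40.2 in the others, although the groups overlapped (exact permutation p = 0.0238, adjusted p = 0.198). With each list reduced to the same number of peaks, those with the highest −log10 q, 8 of 34 members differed in acetylated length, against 22.7% of all genes. Rara, Thra, Nr1d1 and Esrra were then no longer past the unadjusted threshold, and the other 8 of the 12 were. The part that sequencing depth plays in the shorter lengths was not tested.

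Between all 5 ΔEcad and all 4 Ecad lines, 8 of 35 members differed in acetylated length (22.9%, against 16.7% of all genes), and all were shorter in the ΔEcad lines (16.6% of all genes were). They were Rara, Rxra, Rxrb, Thra, Nr1d1, Nr1h2, Nr2f6 and Esrra, and each was also among the 12 above, with which this comparison shares lines. In Thra, the Ecad lines had 3.92, 4.37, 7.91 and 4.99 kb and the ΔEcad lines 2.92, 0.445, 0, 0.391 and 0.415 kb. The groups did not overlap (exact permutation p = 0.0159, adjusted p = 0.242). Nr1h2 had 0.898 ± 0.106 kb against 1.15 ± 0.111 kb in the Ecad lines (exact permutation p = 0.00794, the smallest possible, adjusted p = 0.210). The count of 8 became 5 without Ma_1014 and 4 without any of Ma_1007, Ma_1039, Ma_1057, Ma_1064 or Ma_1069.

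Groups that did not overlap were seen in 4 of the 35 members (Thra, Nr1d1, Nr1h2 and Nr2f6), against 6.59% of all genes. As a share of the list, 1 member differed, Thra, with 22.4 ± 32.0 bp per Mb against 112 ± 46.9 bp per Mb (exact permutation p = 0.0238, adjusted p = 0.475), against 10% of all genes. In promoter calls 0 of 32 members differed by Fisher's exact test, also at an unadjusted p under 0.05, against 5.69% of all genes.

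Between the 5 female and the 4 male lines, the clock receptor Nr1d2 was the only 1 of 35 members that differed in acetylated length (13.5% of all genes did). It had 2.71 ± 0.827 kb in female and 5.20 ± 1.78 kb in male lines (exact permutation p = 0.0159, adjusted p = 0.296). The count was 0 without Ma_1039, Ma_1057 or Ma_1069, and 2, 3 and 4 without Ma_1062, Ma_1181 and Ma_1456. Nr1d2 itself was no longer past the unadjusted threshold without Ma_1014, Ma_1039, Ma_1057 or Ma_1069 (exact permutation p = 0.0571 each) or with a 10 kb flank (exact permutation p = 0.0556). It was also the only member to differ as a share of the list, at 68.6 ± 14.4 bp per Mb against 107 ± 20.5 bp per Mb (exact permutation p = 0.0159, adjusted p = 0.563), where 8.25% of all genes did. In promoter calls 0 of 32 members differed by Fisher's exact test at an unadjusted p under 0.05, against 3.08% of all genes.

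Peaks of the 9 lists were then merged into regions to locate these differences. Over the members lay 172 regions, of which 27 (15.7%) were called in all 9 lines, compared with 13.7% of 59668 regions genome-wide. Of the 172, 122 were more than 1 kb from any start of the member, and 11 of these were called in all lines. Regions called in each of the 6 other lines and in no female ΔEcad line made up 1.34% of all regions. Among the members there were 2 of them. The Nr2f6 promoter region, chr8:71381114-71383076, overlaps exons at the 5′ end of the gene. The Thrb region, chr14:17827009-17827849, lies inside the gene, 135 kb from the nearest start, and overlaps an annotated exon.

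Regions called in all 4 Ecad and in no ΔEcad line made up 0.551% of all regions, and 1 lay over a member. It lay inside Rxra, at the start of a non-coding transcript. No tests are given for these regions, which are described as found.

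**Figure D5:**
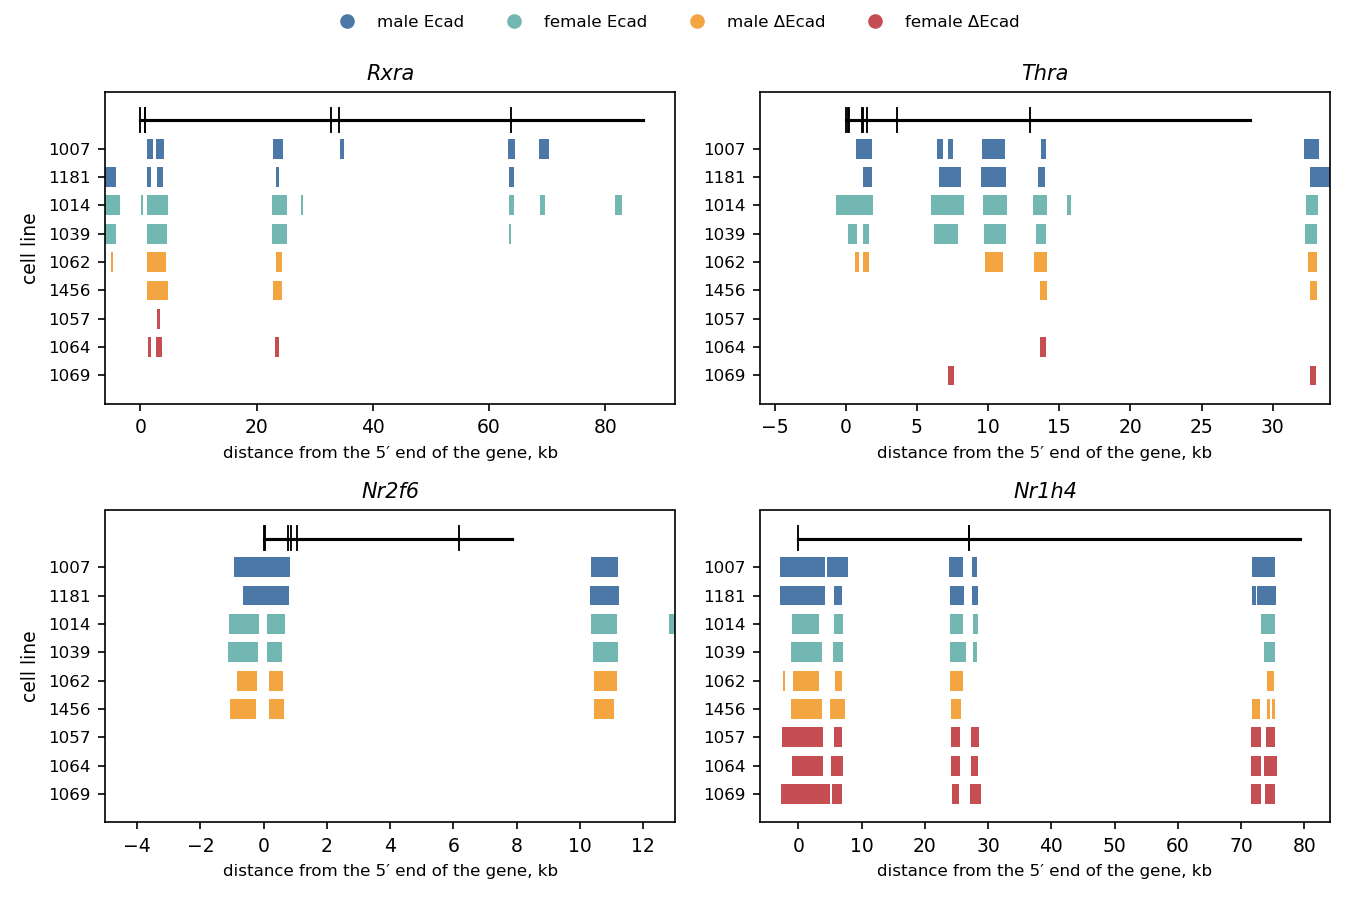
Peaks of the 9 lists (horizontal bars, a row per line, coloured by group) around selected members, by distance in kb from the 5′ end of the gene in the direction of transcription; ticks mark annotated starts. Nr2f6 has no bar in the 3 female ΔEcad rows, and the Rxra peak at its most downstream start is present in the 4 Ecad rows only.

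Genes that work with nuclear receptors were examined through 3 lists. These were chosen with earlier results of the same data known, so shares of all genes beside them are for scale only. Of 12 co-regulators, 5 had a called promoter in all 9 lines (Ncoa2, Ncor1, Nrip1, Med1 and Ep300), 7 in some and 0 in none. Crebbp, the acetyltransferase CBP, was called in the 4 Ecad lines and in no ΔEcad line (Fisher's exact p = 0.00794, adjusted p = 0.682). Ppargc1b, a co-activator of oestrogen-related receptors, was called in the 4 Ecad lines and Ma_1057 (Fisher's exact p = 0.0476, adjusted p = 0.836). Kdm1a, the histone demethylase LSD1, was called in the 6 lines outside the female ΔEcad group and in none of that group (Fisher's exact p = 0.0119, adjusted p = 0.257). Ep300, the paralogue of Crebbp, was called throughout. Thus 2 of 12 co-regulators differed between ΔEcad and Ecad lines, against 5.69% of all genes, and 1 of 12 between the female ΔEcad and other lines, against 8.44%.

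Of 18 genes of ligand supply and breakdown, 13 were called in no line, including the retinoic acid synthases Aldh1a1, Aldh1a2 and Aldh1a3 and the vitamin D enzymes Cyp24a1 and Cyp27b1. Rdh10, which makes retinaldehyde, and Hsd11b1, which regenerates active glucocorticoid, were called in all 9. Dhrs3, which reverses the Rdh10 step, was called in 8, all but Ma_1064.

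Of 18 textbook target genes, 9 were called in all 9 lines, 6 in some and 3 (Pdk4, Stra6 and Nr0b2) in none. The LXR targets Abca1, Mylip and Srebf1 were called throughout, whereas Abcg1 was called in Ma_1007 and Ma_1062 only. Clock-linked Per1, Dbp and Bmal1, which the annotation lists as Arntl, were called in all lines. Among glucocorticoid targets, Tsc22d3 was called in the 6 lines outside the female ΔEcad group only (Fisher's exact p = 0.0119, adjusted p = 0.257) and Fkbp5 in all lines but Ma_1181 and Ma_1069. Tsc22d3 was the only 1 of these 18 to differ between the female ΔEcad and other lines, against 8.44% of all genes. In the 3 lists together no call passed an adjusted p of 0.05.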

How the data were processed

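H3K27ac ChIP–seq peak lists of 9 mouse melanoma lines were used. Per the submitters' processing notes and the study's methods, reads were aligned to GRCm38 (mm10) with Bowtie2 2.4.5 and MACS2 2.2.7.1 was used. deepTools 3.5.1.0.0 is also named. Peak-calling settings and the input used for each list are not given in the sources used here, and the 4 input libraries were not analysed here. The authors called peaks per line, without pooling. Each deposited list gives position, a score, fold enrichment over background (a ratio), −log10 p, −log10 q and summit. The deposited score is 10 times −log10 q without its decimals in at least 99.8% of peaks. The lowest −log10 q in each list lay just above 5, so all peaks passed a q of 1e-05. No per-library counts were used, so precision rests on the number of lines.

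Genes and transcript starts came from GENCODE M21 (21951 protein-coding genes of 55450) and sequences from the RefSeq GRCm38 assembly. A promoter was called where a peak overlapped, by at least 1 bp, the 1 kb on either side of any start. Groups came from the labels. Promoter calls were compared by Fisher's exact test and acetylated lengths by exact permutation tests (84 ways of choosing 3 of 9 lists, 126 of choosing 5), two-sided, over all protein-coding genes with a call or a length, with Benjamini-Hochberg adjustment over all of them. The test code was also run on simulated calls and lengths. These were drawn without differences between whole lists, so that run does not cover such differences. A p from 3 against 6 lines cannot go below 0.0119, and from 5 against 4 not below 0.00794. No interval or limit of detection is given, since depth is not recorded in these files. Python 3.11.15, numpy 2.4.6, pandas 2.3.3, scipy 1.17.1 and matplotlib 3.10.9 were used.

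All 43 members are named. Those called in some lines are given line by line, those called in all lines by range with the widest 5 in full, and those never called by their gene-body peaks. Members and gene lists were chosen with earlier results of these data known. Alternatives varied the window, the starts, the flank, the overlap rule, the list length and the lines included. The restriction to starts of protein-coding transcripts was added after seeing the data. Sequence of some windows is not reported here.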

Additional observations from a re-analysis of the deposited data

Results flagged for a closer look

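In 30 checks of groups of 4 or 5 lines, 5 values stood apart from the rest of their group by Dixon's criterion, which chance alone meets in about 1 of 20 groups. Among the 4 Ecad lines, Ma_1007 had 31 members with a called promoter (24 to 25 in the others) and a summed acetylated length of 259.5 kb (153.2 to 164.2 kb). Its list was also the longest. Ma_1007 also had the longest acetylated length of Nr1d2 among the Ecad lines, 7.542 kb against 3.15 to 3.241 kb. Among the 5 ΔEcad lines, Ma_1062 stood apart with 1.951 kb for Esrra (0.472 to 0.842 kb) and 2.922 kb for Thra (0 to 0.445 kb).

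For 2 members every line moved in opposite directions with genotype in the sexes, and this difference was not tested. The share of all protein-coding genes with such a pattern is not given here. The count of 2 therefore cannot be set against genes at large. The acetylated length of Nr1h4 was 1.879 kb higher in female ΔEcad than in female Ecad lines, while the male difference was -4.572 kb. Its group means were 10.9 kb in female Ecad, 12.8 kb in female ΔEcad, 14.3 kb in male Ecad and 9.71 kb in male ΔEcad lines. The acetylated length of Nr2f1 was 0.7997 kb higher in female ΔEcad lines than in female Ecad lines, where it was 0 kb, and the male difference was -1.275 kb, with means of 2.00 kb in male Ecad and 0.727 kb in male ΔEcad lines.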

How the results depend on the processing

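The number of members called in all 9 lines (13) was 8 with the 5′ end as the only start, 8 when the summit had to lie in the window and 8 with only peaks above each list's median −log10 q, and 13 to 17 when each line was left out in turn. Members differing in promoter call between female ΔEcad and other lines (1, Nr2f6) became 2 with a 500 bp window, 3 with lists of equal length and 3 with peaks above the median (1 to 3 leaving out a line). Between ΔEcad and Ecad lines the count of 0 became 1 (500 bp), 2 (summit), 1 (equal length) and 1 (above the median), and between sexes 1 (summit) and 1 (equal length). The shares of all genes that differed in these settings are not given here, so the counts cannot be set against genes at large.

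Members differing in acetylated length between female ΔEcad and other lines (12) became 7 with a 10 kb flank and 5 as a share of the list, and 4 to 11 leaving out a line, with 4 without Ma_1069 and 6 without Ma_1057. Between ΔEcad and Ecad lines 8 became 1 as a share of the list (4 to 7 leaving out a line), and between sexes 1 became 4 with equal lists and 4 with peaks above the median (0 to 4 leaving out a line). As a share of the list, 17.7% of all genes differed for female ΔEcad and 10% for ΔEcad. For the other settings of this section, and wherever a line was left out, no share of all genes is given. Those counts describe the members only. Nr1h2 changed direction as a share of the list, to +0.635 bp per Mb covered (female ΔEcad) and +0.229 (ΔEcad). The cause was not tested. Rarg, Nr1d1, Nr2f6 and Nr3c1 stayed past the unadjusted threshold for female ΔEcad whichever line was left out, as did Thra, Nr1h2 and Nr2f6 for ΔEcad. For female ΔEcad, Nr1d1 was lost with equal lists, the 10 kb flank and as a share, and Rarg and Nr3c1 as a share. For ΔEcad, Nr1h2 was lost as a share, and Nr2f6 as a share and with the 10 kb flank. No paired analysis was made, because the labels give no pairing between lines of different groups.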
